A study of Mus musculus with 6 samples.

Results

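The genes described here are the receptors, co-receptors, transcription factors and feedback genes of the Hedgehog pathway in mouse mammary stem cells: Boc, Cdon, Gas1, Ptch1, Smo, Gli1, Gli2, Gli3 and Hhip. They are 9 of the 22180 genes that could be named on the arrays, and each was read by 1 probe set. They were gathered around Boc, which an earlier reading of the same arrays had listed among the genes with the smallest unadjusted p on the side higher in Mll3-null cells. The difference between the genotypes therefore chose Boc, and the differences of the 9 genes are given as a description, without a test. The question was whether a higher level of this co-receptor comes with a higher level of the genes that Hedgehog signalling switches on.

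The study compared cells with and without MLL3 (gene Kmt2c), a histone methyltransferase that marks enhancers. Total RNA was taken from wild-type (WT) and from Mll3-null mammary stem cells, the null lines having been made by CRISPR, and both were grown as organoids, which are 3-dimensional epithelial cultures. There were 3 arrays per genotype, labelled as biological replicates. Whether these came from several lines or from several cultures of 1 line is not stated, so errors cover the spread between these samples only. Values are log2 expression, group values are means ± SD of the 3 arrays, and differences are Mll3-null minus WT.

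Hedgehog ligands (Shh, Ihh and Dhh) bind the receptor PTCH1, which otherwise holds the membrane protein SMO inactive. BOC, CDON and GAS1 are co-receptors that help PTCH1 bind the ligand. Active SMO, working at the primary cilium, turns GLI2 and GLI3 away from their repressor forms, and the activators switch on Gli1, Ptch1 and Hhip, which are the usual readouts of the pathway. In the mammary gland the pathway is known for its work in ductal development, where GLI3 acts largely as a repressor and much of the response to ligand lies in the stroma.

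The cells carried basal and luminal epithelial markers, which do not by themselves show the stem cell state of their label. All 12 luminal markers, among them Krt8, Krt18, Epcam and Cdh1, and 9 of the 11 measured basal markers lay on every array above 4.34, the 95th percentile of 1105 olfactory receptor genes, a rough gauge of probe background that was chosen after the data were seen. Cnn1 and Lgr5 of the basal list did not. The gauge was lenient, as the array medians of all probe sets were 4.35 to 4.40. Of 15 measured fibroblast and stromal markers, 5 lay above the gauge on every array and 5 below it on every array. The mean level of that list ran from 4.86 to 5.01 in WT and from 4.64 to 4.95 in Mll3-null arrays. Endothelial markers ran from 3.83 to 3.96 in WT and from 3.86 to 3.99 in Mll3-null arrays, with 6 of 8 below the gauge on every array. Immune cell markers (5 of 7 below it on every array) had list means of 3.90 to 3.99 and 3.87 to 4.02, and adipocyte markers (3 of 6) of 3.78 to 3.98 and 3.85 to 3.93. Mll3-null replicate 3 stood apart: 123 genes exceeded every other array there by over 1 log2 unit and 294 fell short by as much, where each of the others had 9 to 33 and 1 to 24. The basal keratin gene Krt14 was at 6.65 on that array and between 11.74 and 12.43 on the other 5, and Trp63, the transcription factor of basal cells, was at 5.02 against 7.86 to 8.84. The basal list did not move as a whole there: 6 of its 11 genes were at their lowest of the 6 arrays and 2 at their highest, Oxtr (8.35 against 4.74 to 6.54) and Itga6 (11.22 against 10.71 to 11.00). The stromal marker Postn was at 3.37 against 8.12 to 10.68. Prrx1 (8.24 against 6.35 to 8.14) and Col1a1 (5.65 against 5.40 to 5.60) of the stromal list were at their highest there, by little. Oxtr, Itga6, Postn and Prrx1 were named after their values were seen. On that array the stromal genes deviated from their 6-array means by a median of 0.0045. Since fewer cells of a type and less RNA per cell look alike in such bulk samples, neither can be read from these values alone.

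The sequence just upstream of the start site was available in the RefSeq table (GRCm38.p6) for 7 of the 9 genes: Cdon, Gas1, Ptch1, Smo, Gli2, Gli3 and Hhip. Both feedback genes among them, Ptch1 and Hhip, are shown because they report pathway output, with the GC box in capitals, which reads GGGCGG on one strand and, seen from the opposite strand, CCGCCC. Gli2 is shown because its window was the only one of the 7 with the GLI core ACCACCC, here as GGGTGGT on the strand printed, in capitals. The Gli2 run also holds a GC box, which is left in lower case. Each run holds the 250 bases before the start, 5′ to 3′ on the strand of the gene.
Ptch1, chr13:63565736-63565985, minus strand: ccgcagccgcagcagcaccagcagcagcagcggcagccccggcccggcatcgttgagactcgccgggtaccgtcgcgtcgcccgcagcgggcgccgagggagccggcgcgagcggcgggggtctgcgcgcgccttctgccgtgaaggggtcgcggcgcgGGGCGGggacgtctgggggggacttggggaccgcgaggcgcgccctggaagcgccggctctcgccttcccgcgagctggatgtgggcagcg
Hhip, chr8:80058009-80058258, minus strand: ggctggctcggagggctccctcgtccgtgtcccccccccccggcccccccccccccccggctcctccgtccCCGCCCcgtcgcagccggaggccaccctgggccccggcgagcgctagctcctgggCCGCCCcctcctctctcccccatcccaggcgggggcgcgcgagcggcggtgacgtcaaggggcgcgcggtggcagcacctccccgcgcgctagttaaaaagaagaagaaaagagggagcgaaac
Gli2, chr1:119053620-119053869, minus strand: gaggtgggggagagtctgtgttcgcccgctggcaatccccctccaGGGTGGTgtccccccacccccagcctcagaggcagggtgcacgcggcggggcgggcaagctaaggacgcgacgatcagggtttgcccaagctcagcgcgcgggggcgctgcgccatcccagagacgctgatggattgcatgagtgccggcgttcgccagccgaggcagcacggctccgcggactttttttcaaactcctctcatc

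The full GLI consensus GACCACCCA (TGGGTGGTC on the other strand), which contains the core, was in none of the 7 windows, read over the table's full windows, which go on a little past the start. It was in 0.253% of the 32851 windows of that length in the table. The core ACCACCC was in 4.61% of them and the GC box in 35.7%, and 5 of the 7 windows held a GC box. The core in Gli2 began 205 bases before the start and the GC box in Ptch1 91 bases before it. CG dinucleotides numbered 47 in the Ptch1 window, 39 in Gli3, 30 in Hhip and 28 in Gli2, all above the upper quartile of 20 over all windows. They numbered 17 in both Gas1 and Smo and 3 in Cdon, where the median of all windows was 7. These letters describe the windows only; GLI binding outside them was not examined.

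**Figure D1:**
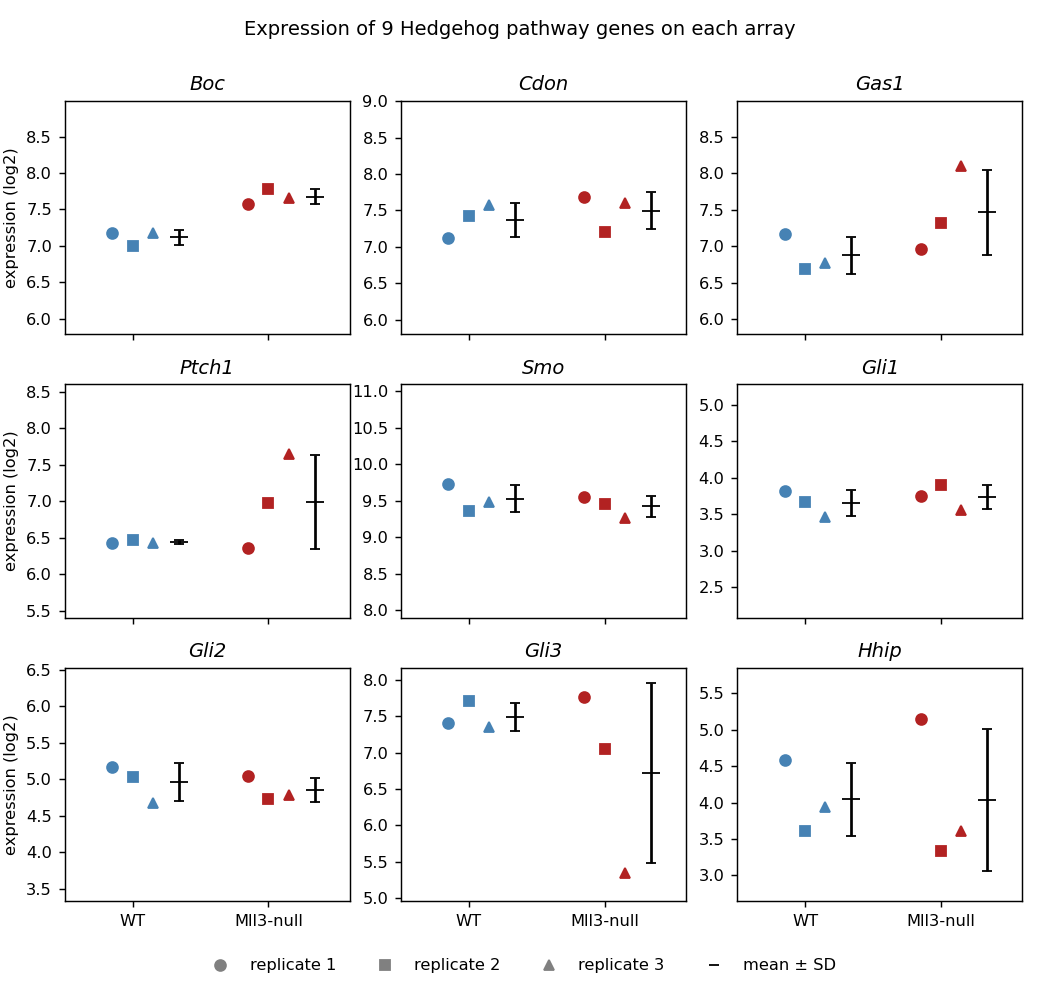
Log2 expression of the 9 genes on each array (blue, WT; red, Mll3-null; symbol, replicate number; black, mean ± SD, n = 3), every panel spanning the same number of log2 units. The 3 Mll3-null arrays lie above the 3 WT arrays for Boc, while for the other 8 genes the groups overlap.

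Boc, the co-receptor that led to this group of genes, was higher on each Mll3-null array than on any WT array. It read 7.17, 7.00 and 7.18 in WT replicates 1 to 3 and 7.58, 7.78 and 7.66 in Mll3-null replicates 1 to 3. The groups did not overlap, and the spread within each was narrow (SD 0.10 in both). The difference was 0.56 ± 0.10 (log2, SE, n = 3 each), or 1.47-fold. It lay between 0.50 and 0.60 whichever array was left out. Boc was chosen for a small unadjusted p in this contrast, which favours genes with a narrow spread and a steady difference. The narrow SD and range are therefore no evidence that the difference is reliable. Mll3-null replicate 3, which stood apart elsewhere, held the middle value of its group for Boc.

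Across all 22180 genes, 5.44% had every Mll3-null array above every WT array and 5.31% every one below. Boc was the 1 of the 9 genes in the first class, and none was in the second. No gene of the 22180 had an adjusted p under 0.05 (limma, Benjamini-Hochberg; 0%), the 9 included, and 1093 (4.93%) had an unadjusted p under 0.05. These shares are set beside the count of 1 because the contrast itself chose Boc, and nothing further is read from it.

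For the other co-receptors the groups overlapped. Cdon, its closest relative among the receptors of this pathway, read 7.12, 7.42 and 7.58 in WT and 7.69, 7.20 and 7.61 in Mll3-null cells. Its groups were interleaved, with a difference of 0.12 ± 0.17 (log2, SE) that was -0.00 without WT replicate 1. Gas1, a co-receptor held to the membrane by a lipid anchor, read 7.16, 6.68 and 6.78 in WT and 6.96, 7.33 and 8.11 in Mll3-null cells. Mll3-null replicate 1 lay inside the WT range and replicate 3 was far above every other array. The difference in Gas1 was 0.59 ± 0.30 (log2, SE), or 1.50-fold by group means, as large as that of Boc but with an SD of 0.59 among the Mll3-null arrays. Without Mll3-null replicate 3 it was 0.27. The gap between that array and the next was 0.78, and 1.11% of all genes stood out as far above on the same array.

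Ptch1, the receptor and itself a GLI target, was level in WT and spread widely in Mll3-null cells. It read 6.43, 6.47 and 6.43 in WT (SD 0.02) against 6.36, 6.97 and 7.64 in Mll3-null cells (SD 0.64). Mll3-null replicates 2 and 3 exceeded the WT range, and replicate 1 lay just under it. The difference was 0.55 ± 0.30 (log2, SE), or 1.46-fold by group means. Leaving out Mll3-null replicate 3 gave 0.22, and leaving out replicate 1 gave 0.86. In replicate 3 Ptch1 stood 0.67 above the next array, a gap that 1.57% of all genes matched or exceeded on the same array and side. Smo, the signal transducer that PTCH1 restrains, read 9.73, 9.37 and 9.48 in WT and 9.55, 9.46 and 9.26 in Mll3-null cells. The groups overlapped, with a difference of -0.10 ± 0.13 (log2, SE) that ran from -0.18 to -0.00 with 1 array left out.

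**Figure D2:**
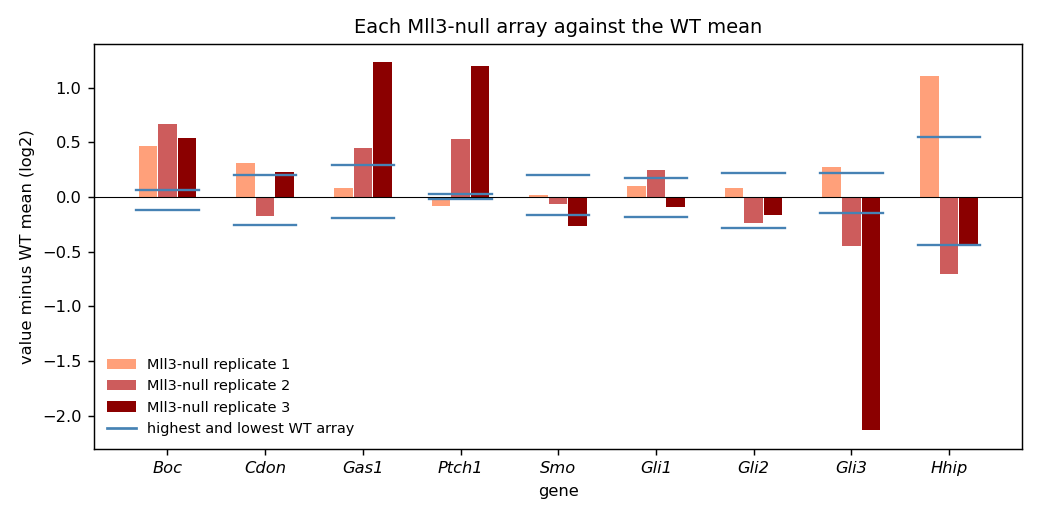
Log2 value of each Mll3-null array minus the WT mean of the gene (bars, from light to dark replicates 1 to 3), with blue lines at the highest and lowest WT array. For Boc all 3 bars lie above the WT range, for Ptch1 and Gas1 those of replicates 2 and 3 do, and Gli3 in replicate 3 lies far below it.

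Gli1, whose transcript is the most used readout of the pathway, was dim in both genotypes. It read 3.82, 3.66 and 3.46 in WT and 3.75, 3.89 and 3.55 in Mll3-null cells. The groups overlapped throughout, with a difference of 0.09 ± 0.13 (log2, SE). All 6 values lay below 4.34, the 95th percentile of the olfactory receptor genes, whose median was 2.84. No detection values were used, so whether the probe set read any Gli1 transcript cannot be told, and a change below its background would not be seen. The 443 expressed genes of chromosome 10, where Gli1 lies, had a median 0.23 above their 6-array means on WT replicate 1, where the other arrays ran from -0.07 to 0.01. With these medians subtracted the difference was 0.20. Gli1 itself was too dim to be among those expressed genes. If its probe set read background only, the subtraction would not apply to it.

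Hhip, a membrane-bound decoy that binds the ligand and a target of the GLI proteins, differed more within the groups than between them. It read 4.59, 3.61 and 3.94 in WT and 5.15, 3.34 and 3.61 in Mll3-null cells. Replicate 1 was the highest in each group, and only these 2 arrays lay above the olfactory gauge. The group means were 4.04 and 4.03, with a difference of -0.01 ± 0.50 (log2, SE). Leaving out 1 array gave values from -0.57 to 0.34. Mll3-null replicate 1, with the highest Hhip, was the array with the lowest Ptch1.

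Of the 3 readouts of the pathway, Gli1 lay above the olfactory gauge on 0 of 6 arrays and Hhip on 2. Their nearly equal group means therefore cannot show whether pathway output stayed level. Ptch1 was higher on 2 of 3 Mll3-null arrays. On the remaining one, Mll3-null replicate 1, Boc was 0.40 above the highest WT array and Ptch1 was 0.07 below the lowest. Replicate 2 had the highest Boc and replicate 3 the highest Ptch1.

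Gli2, the main activator of the pathway, read 5.18, 5.03 and 4.68 in WT and 5.04, 4.72 and 4.79 in Mll3-null cells. The groups overlapped, with a difference of -0.11 ± 0.16 (log2, SE) that was -0.00 without WT replicate 1 and -0.25 without WT replicate 3. The 510 expressed genes of chromosome 1, which carries Gli2, had a median 0.28 above their 6-array means on Mll3-null replicate 3 and 0.08 above on replicate 2, against -0.11 to -0.03 on the other 4 arrays. With these medians subtracted the Gli2 difference was -0.28.

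Gli3, which works mainly as a repressor, had the widest range of the 9 genes. It read 7.41, 7.71 and 7.35 in WT and 7.76, 7.04 and 5.35 in Mll3-null cells. Mll3-null replicate 1 held the highest value of all arrays and replicate 3 the lowest, 1.69 below the next. On that array 0.582% of all genes lay as far below the other 5. The difference of -0.77 ± 0.57 (log2, SE) came to -0.08 with Mll3-null replicate 3 left out and to -1.29 with replicate 1 left out. Low Gli3 went with the low Krt14, Trp63 and Postn of that array given above. Oxtr and Itga6 of the basal list were at their highest there. So were Prrx1 and Col1a1 of the stromal list, but only by little. The mean of the 11 basal markers was 6.13 on that array against 7.48 to 7.97 on the other 5. That of the 15 stromal markers was 4.64 against 4.86 to 5.01. The part of the basal and stromal genes in the Gli3 value was not tested. Without that array Krt14 differed by 0.18 and Trp63 by 0.32. For the chromosomes of Boc, Cdon, Gas1, Ptch1, Smo, Gli3 and Hhip such medians lay between -0.05 and 0.08 on every array.

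**Figure D3:**
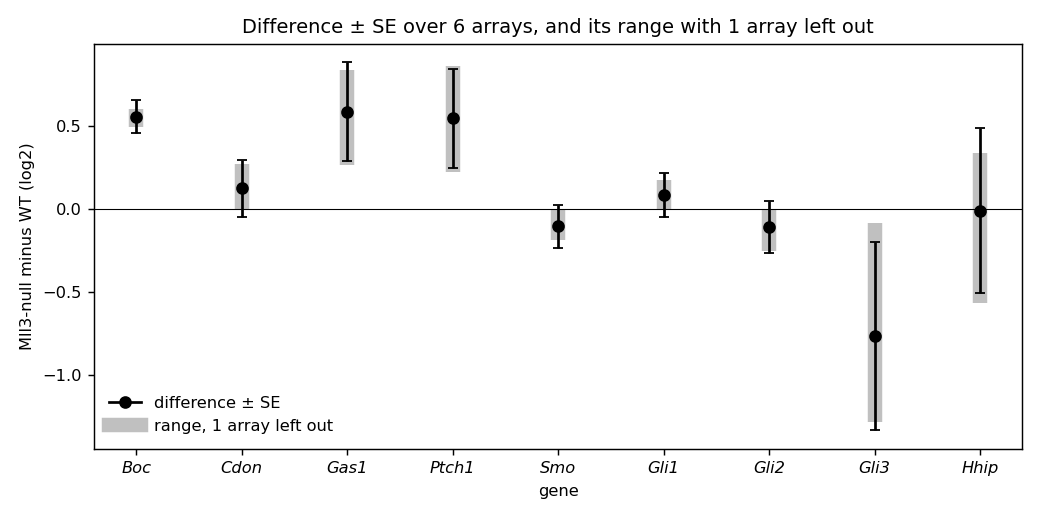
Difference Mll3-null minus WT (log2) with its SE for each gene (black), and the range of the difference when 1 array is left out (grey). The grey range for Boc, which this contrast chose, runs from 0.50 to 0.60. That of Gli3 runs from -1.29 to -0.08 and that of Hhip crosses 0.

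In Mll3-null cells 5 of the 9 means were higher and 4 lower, with a median difference of 0.09, against 51.5% of all genes with a higher mean and a median of 0.01. In 4 of them (Gas1, Ptch1, Gli3 and Hhip) the values of the 6 arrays spanned more than 1 log2 unit. In 4 (Gas1, Ptch1, Smo and Gli3) Mll3-null replicate 3 was the highest or the lowest array.

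The rest of the pathway was read from lists of genes grouped by role. Of 107 further genes with a value, 0 passed an adjusted p of 0.05 in either direction (limma, Benjamini-Hochberg over all genes; smallest adjusted p 0.84). An unadjusted p under 0.05 was reached by 5 (4.67%), beside 4.93% of all genes. All 5 were in the list of GLI targets and lower in Mll3-null cells, and none was in the other lists. They include Grem1 and Ccn1, which were already known from these arrays to be lower. Higher means were found for 52 and lower means for 55 in Mll3-null cells, with a median difference of -0.01. The groups were apart for 14 genes (13.1%, beside 10.7% of all genes), 7 with Mll3-null above WT and 7 with it below.

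Among the ligands, Shh read between 3.33 and 3.83 on the 6 arrays, inside the range of the olfactory receptor genes, and differed by 0.10 ± 0.14 (log2, SE). Ihh averaged 6.17 ± 0.29 in WT against 5.96 ± 0.10 in Mll3-null arrays (SD). Dhh averaged 4.86 ± 0.19 in WT against 4.59 ± 0.30 in Mll3-null arrays, and lay above the olfactory gauge on 5 of 6 arrays. Hhat, the acyltransferase that adds palmitate to the ligands, differed by 0.10, Disp1, the transporter that releases them, by 0.08, and Scube2, a secreted carrier, by -0.03 (log2). Of the 13 measured genes of ligand making and release 7 had a higher and 6 a lower mean (median 0.05), and none had groups apart. The widest difference among them was that of Scube1, a secreted relative of Scube2 named after its values were seen. It read 5.97, 4.64 and 5.95 in WT and 5.25, 6.02 and 9.22 in Mll3-null cells, and its difference of 1.31 ± 1.01 (log2, SE) was 0.12 without Mll3-null replicate 3. That array thus held the highest Scube1, Gas1 and Ptch1.

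The 28 measured genes that carry the signal from SMO to the GLI proteins or restrain it had a median difference of -0.01, with 12 higher and 16 lower means. Sufu, which holds GLI proteins in the cytoplasm, averaged 8.02 ± 0.15 in WT against 8.19 ± 0.17 in Mll3-null arrays (SD). Kif7, the kinesin that organises GLI regulation at the tip of the cilium, averaged 5.39 ± 0.11 in WT against 5.18 ± 0.15, a difference of -0.22 that was -0.09 when both of its probe sets were averaged. Gpr161, a ciliary receptor that restrains the pathway, differed by -0.19, and Spop, an adaptor for GLI degradation, by -0.06. Stk36 and Evc, a kinase and a ciliary protein of the pathway, differed by -0.05 and -0.06 (log2). The ubiquitin ligase gene Itch, named after its values were seen, differed by -0.15 ± 0.08 (log2, SE). It was the 1 gene of this list whose Mll3-null arrays all lay below WT (3.57%, beside 5.31% of all genes).

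Genes of the primary cilium, the organelle in which SMO acts, had a median difference of 0.02 over 30 genes, with 18 higher and 12 lower means. Ift88, a carrier subunit needed to build the cilium, averaged 6.78 ± 0.08 in WT against 6.80 ± 0.17 in Mll3-null arrays (SD). Kif3a, the motor for the same transport, read 7.17, 7.18 and 7.22 in WT and 7.33, 7.38 and 7.35 in Mll3-null cells. Its groups were apart by a small step of 0.17 ± 0.08 (log2, SE; unadjusted p = 0.070, adjusted p = 0.84, limma). Kif3a was among 4 genes of this list with all Mll3-null arrays above WT (13.3%, beside 5.44% of all genes). The others were Ift172, Tulp3 and Bbs4, named after their values were seen. Tulp3 was barely apart, with its lowest Mll3-null array at 7.917 and its highest WT array at 7.916. For Ift172 these were 6.17 and 6.15, so the share rests partly on very small steps.

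The 36 measured genes listed as GLI targets in 1 tissue or another, Gli1, Ptch1 and Hhip left out, had a median difference of -0.03. Of their means 15 were higher and 21 lower. The list was not sorted by whether GLI proteins switch a gene on or hold it down. A lower value in it therefore cannot be read as less pathway output. Groups were apart upward for 3 (8.33%, beside 5.44% of all genes) and downward for 6 (16.7%, beside 5.31%). An unadjusted p under 0.05 (limma) was reached by 5 (13.9%), all lower in Mll3-null cells and none past the adjusted threshold. They were Ccn1, Grem1, Cdk6, Ccne1 and Myf5. Ccn1 and Grem1, already known from these arrays to be lower, are in both downward counts. Those shares are therefore not independent of the earlier results. Ccnd1, the D-type cyclin, averaged 11.83 ± 0.06 in WT against 11.75 ± 0.06 in Mll3-null arrays (SD). Mycn, a proliferation gene induced by Hedgehog, differed by 0.15 ± 0.09 and Foxf1, a stromal target, by 0.18 ± 0.10 (log2, SE), both with the Mll3-null group wholly above WT and both with an adjusted p of 0.84 (limma). The Mycn values, 4.01 to 4.33, lay inside the range of the olfactory receptor genes. The remaining gene apart upward was Snai1, named after its values were seen, with a difference of 0.38 ± 0.17 (log2, SE). Its lowest Mll3-null array, at 4.832, was barely above its highest WT array, at 4.829. Foxl1 differed by 0.03, Hsd11b2 by -0.01 and Prdm1 by 0.12 (log2). Bcl2, an inhibitor of cell death, differed by 0.32 ± 0.23, which was 0.09 when both of its probe sets were averaged, and Sfrp1, a secreted Wnt inhibitor, by 0.30 ± 0.25 (log2, SE).

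Cdk6, a kinase that works with the D-type cyclins, differed by -0.41 ± 0.12 (log2, SE), and Ccne1, the cyclin of entry into DNA synthesis, by -0.35 ± 0.14. Myf5, a muscle transcription factor, differed by -0.31 ± 0.12 with values of 4.09 to 4.63, partly inside the range of the olfactory receptor genes. These 3, named after their values were seen, had all Mll3-null arrays below WT, as did Ccnd2, Grem1 and Ccn1. The widest differences in this list were downward, in Ccnd2 (-1.43), Grem1 (-1.38), Jag2 (-1.32) and Ccn1 (-1.05), none past the adjusted threshold and all named after their values were seen. Without Mll3-null replicate 3, Jag2, a Notch ligand of basal cells, came to 0.09 and Ccnd2 to -0.56, while Grem1 stayed at -1.27 and Ccn1 at -1.03. Grem1 and Ccn1 were known from earlier results of these arrays to be lower, so their place in the list carries no weight, and each is also regulated by other pathways.

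**Figure D4:**
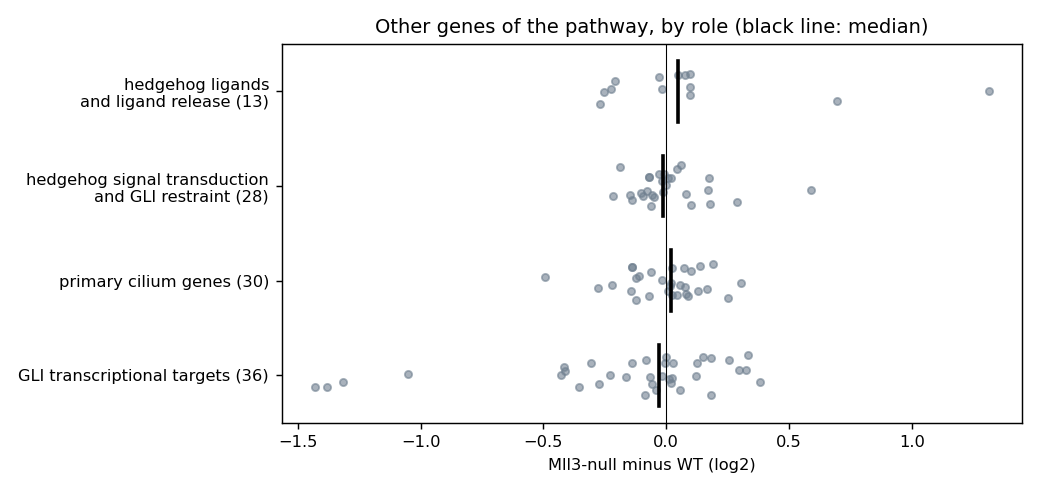
Difference Mll3-null minus WT (log2) of each measured gene in the 4 lists of further pathway genes (points; number of genes in parentheses), with the list's median as a black line. The medians lie between -0.03 and 0.05, and the points beyond 1 log2 unit are Scube1 on the right and Ccnd2, Grem1, Jag2 and Ccn1 on the left.

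The genes whose profile over the 6 arrays was most like that of Boc were sought among 13387 others with a mean over 4, predicted genes, Rik clones and small RNAs left out. Likeness was the root mean square difference of the log2 values after each gene's own mean was subtracted. The closest were Gpr35, an orphan G protein-coupled receptor (0.09), Smtnl2 (0.10), Trim47 (0.10) and Zfp13 (0.11). In WT cells Gpr35 lay below the olfactory gauge, at 4.09 to 4.26. Since Boc separates the genotypes, genes picked for likeness to it do so too. No gene of the pathway lists was among the 4.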

How the data were processed

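The deposited table of the authors holds 1 value per probe set and array, taken as log2 expression because it runs from 1.72 to 13.56 with array medians of 4.35 to 4.40. Per the submitters' processing notes, Affymetrix Expression Console was used; its version, the summarization and the normalization are not stated. The common scale hides any change in total RNA. Of 41345 probe sets, 23521 had 1 gene symbol in the platform annotation, 1814 had several and were not used, and the highest-mean probe set stood for each of 22180 genes. A two-sided limma test (version 3.58.1, R 4.3.3; lmFit and eBayes with genotype as sole term, 6 arrays) was adjusted by Benjamini-Hochberg over all genes, with a threshold of 0.05. The script was tested on simulated data. SDs rest on 3 arrays per group, whose number limits the precision. SEs are those of the limma fit, where eBayes draws the variance of each gene toward that of all genes. For a gene with widely spread arrays, such as Gli3, Hhip or Ptch1, the SE is thus smaller than its own arrays alone would give.

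The 9 genes and the lists were chosen with earlier results of these data known. Further genes were named by role, besides those past the threshold and the 4 most like Boc; others are marked. Listed genes without a probe set to themselves, such as Arl13b, are not reported here. Chromosomes (99.1% of genes) came from GRCm38.p6 through gene identifiers. Genes with a mean over 6 were called expressed. The labels number the replicates alike in each genotype without naming a shared source, so no block was used. Alternatives covered each array left out, the replicate block, probe sets averaged, quantile normalization, median centring, a filter on dim genes, the spread model, array weights and chromosome medians.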

Additional observations from a re-analysis of the deposited data

How the results depend on the processing

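Under all 14 alternatives 0 of all genes and 0 of the further pathway genes passed the adjusted threshold (limma), while 716 to 2742 genes had an unadjusted p under 0.05, against 1093 in the fit reported. The difference of Boc stayed between 0.50 and 0.61, a steadiness that its choice by the same contrast favours. The differences of Gas1 (0.27 to 0.84), Ptch1 (0.22 to 0.86) and Gli3 (-1.29 to -0.08) kept their sign but varied widely. Those of Smo (-0.18 to -0.00) and Gli2 (-0.28 to -0.00) came to nearly 0 without WT replicate 1. That of Cdon changed sign without WT replicate 1 and with array weights (-0.02), and that of Gli1 without WT replicate 3 (-0.01). Hhip changed sign without WT replicate 1 (0.26), without Mll3-null replicate 2 (0.34) or 3 (0.20), and with chromosome medians subtracted (0.03). With only genes of a mean over 4 kept, Gli1 had no value. With the replicate block 0 genes passed and 1290 had an unadjusted p under 0.05. Deviations of same-numbered arrays correlated at 0.04, 0.08 and 0.31 across genes, the last being the highest of all pairs. WT replicate 2 correlated best with Mll3-null replicate 1 (0.22). Deviations from a mean of 3 arrays are tied to one another, so these correlations cannot settle whether the numbers pair the arrays. With the block the SE of Hhip was 0.21 against 0.50 without it, and that of Boc 0.12 against 0.10. Signal near probe background limits Gli1, Hhip, Shh, Scube2 and Mycn, and to a lesser degree Dhh and Gli2.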
